A study of Mus with 438 samples.

Results

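Guca1a, Guca1b and Rd3l, 3 of the 10390 genes measured in single mouse photoreceptors, were taken by symbol because their products act on the guanylate cyclases of the photoreceptor outer segment or resemble a protein that does. They were chosen with earlier results of these data known, including their levels by age, zone, genotype and cell type. Their own levels are therefore described without a test, and counts of them that meet a rule support nothing.

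Light lowers cyclic GMP and calcium in a photoreceptor, and the cell recovers by making cyclic GMP again. Guca1a and Guca1b encode the calcium sensors GCAP1 and GCAP2, which stimulate the membrane guanylate cyclases when calcium falls. RD3 binds the same cyclases, keeps them inactive and helps them reach the outer segment, and Rd3l encodes a protein related to RD3.

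The study compared cones of the superior and the inferior retina, cones with and without a thyroid hormone receptor, and rods, all from C57BL/6 mice. Control cones were Trb2Cre-het:Ai6, so the controls themselves carried 1 copy of the Trb2Cre allele of the receptor gene Thrb together with the Ai6 fluorescent reporter. The superior zone gave 26 control cones at postnatal day 2 (P2), 24 at P8, 24 at P21, 26 at P60 and 53 in a set labelled only as 2 months old (2m), and the inferior zone gave 30, 24, 24, 21 and 50. Cones without the receptor were Trb2Cre-KO:Ai6 of 2 months (50 superior, 48 inferior), and 29 rods of 2 months came from another line, tgNrl:gfp, so that cell type and reporter line cannot be told apart in the rod comparison. Fluorescent cells were picked singly from dissociated retina. The labels name no animal, so a group of cells counts as 1 sample, the spread over cells is not an error over mice, and the 5 control collections are the only repeats of the zone contrast. Binding of the receptor came from E18 (embryonic day 18) retinas with a tagged receptor (ThrbHAB:BirA) and BirA controls, and chromatin accessibility from purified P30 cones of Trb2Cre-het:Sun1-gfp and Trb2Cre-KO:Sun1-gfp mice. For these assays 3 lists of regions were used, which hold no value per sample.

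Levels are in CPM, reads scaled to a common library total, and each cell had between 8.98e+05 and 3.26e+07 reads. Group medians were 1.74e+06 to 3.25e+06 reads from P2 to P60 and 1.09e+07 to 1.83e+07 reads in the 2-month groups. A pair of P60 superior libraries with a Pearson r of 0.996 over genes, where no other pair passed 0.467, was counted as 1 cell. Thrb itself averaged 213 CPM in the superior cones of the 2m controls and 169.7 CPM in their inferior cones (lowest cell 0, medians 81.5 and 60.0, highest 1339.9 and 1178). In knockout cones it had 43.2 and 33.9 CPM (lowest 0, medians 0.125 and 0.0716, highest 454 and 452), so the groups overlapped, and which part of the gene the allele removes is not given in the sources used here. In the other control groups its means ran from 176 to 897 CPM, and rods had 67.3 CPM. The 9 cone markers summed to means of 7644 to 103230 CPM in the cone groups and 21.0 CPM in rods. The 8 rod markers measured summed to 69191 CPM in rods and to 987 to 6948 CPM in the cone groups. Of 6 Müller glia markers the sums were 376 to 1108 CPM in cones and 2592 CPM in rods. In all, 5 libraries stood apart: 3 inferior control cones (1 of P21 and 2 of P60) with at least 8000 CPM of the rod transducin gene Gnat1, and 1 P2 superior and 1 knockout superior cell whose 7 cone markers other than the opsins summed to under 100 CPM.

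**Figure D1:**
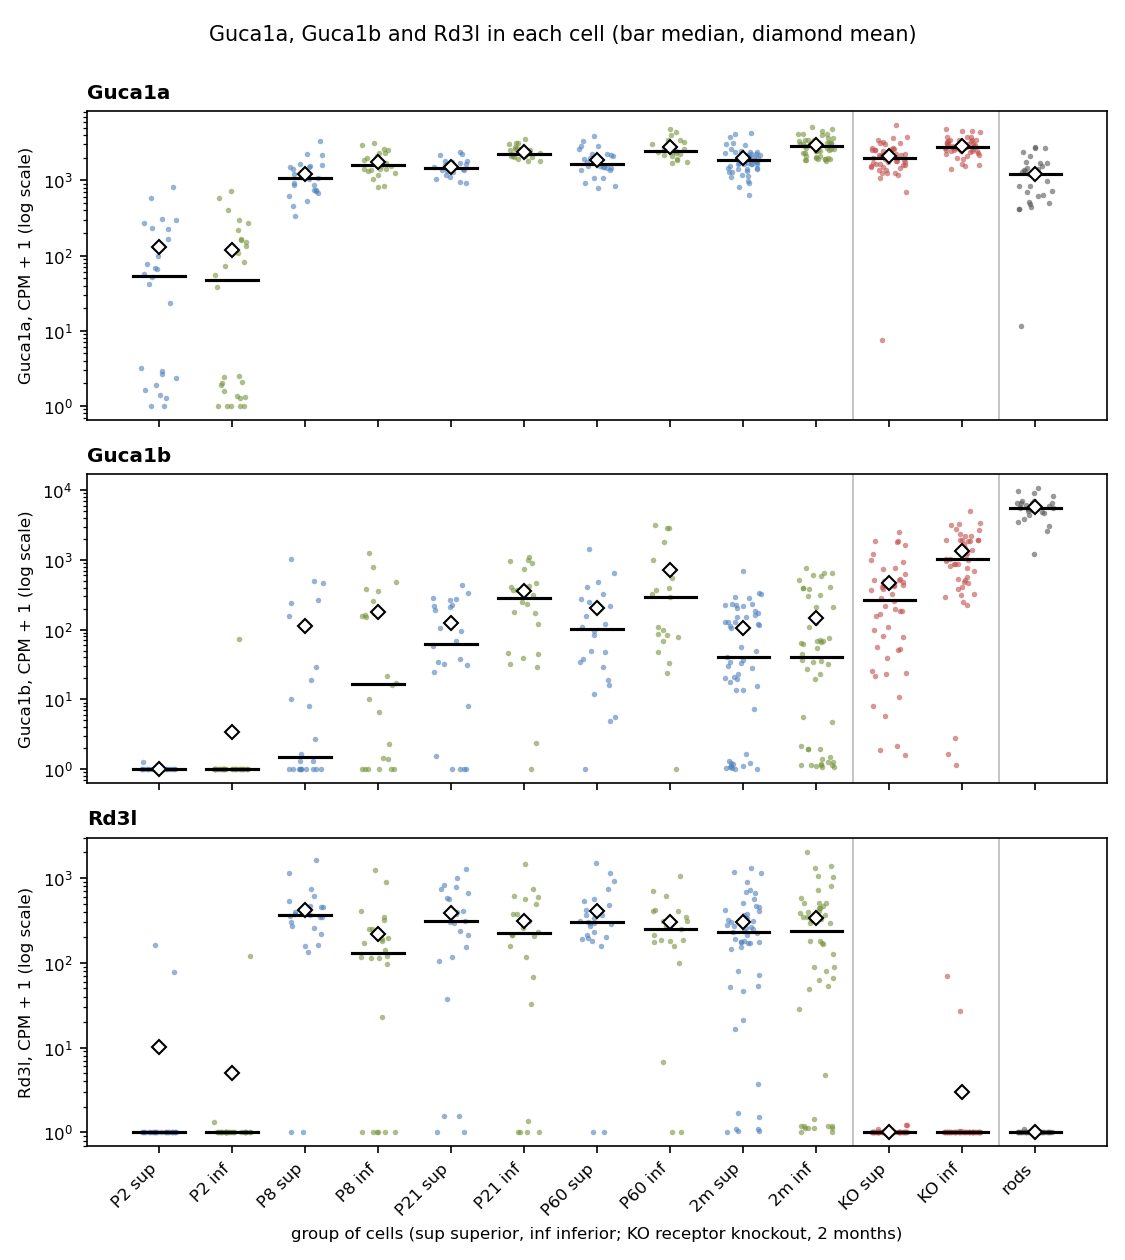
Level of Guca1a, Guca1b and Rd3l in each of 429 cells by group, as CPM + 1 on a log scale; points are cells, bars are medians and diamonds are means. After P2, Guca1a was at 6.51 CPM in 1 knockout cone, 10.5 CPM in 1 rod and 329.6 CPM or more in all other cells, Guca1b was highest in rods and spread widely in cones, and Rd3l was near 0 in P2 cones, knockout cones and rods.

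Guca1a, the GCAP1 gene, was found in every control cone from P8 on. In P2 superior cones the lowest, median and highest cells had 0, 52.96 and 820.0 CPM, and in P2 inferior cones 0, 46.1 and 721 CPM. At P8 the values were 329.6, 1067 and 3291 CPM in superior and 813, 1592 and 3158 CPM in inferior cones. Every inferior P8 cone lay above every inferior P2 cone, which held for 0.0674% of all genes, while the superior groups overlapped (0.0481% of genes did not). The mean went from 129.8 to 1200.4 CPM in superior cones (9.19-fold on the scale of mean CPM + 1, used for all ratios) and from 119 to 1753 CPM in inferior cones (14.7-fold).

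After P8 the Guca1a means were higher at each later collection in both zones, in smaller steps than from P2 to P8. Superior means were 1524 CPM at P21, 1861 at P60 and 1953 in the 2m collection. Inferior means were 2409, 2757 and 2906 CPM at the same ages. In the order of the 13 group means the quartile ranges of neighbours overlapped in 11 of 12 steps, and the break fell between P2 and P8 superior cones. From P8 to the 2m collection the ratio was 1.63-fold in superior and 1.66-fold in inferior cones, and the largest single step was 1.37-fold, from P8 to P21 in inferior cones. Every control cone from P8 on had more than 10 CPM.

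Guca1a was lower in superior than in inferior cones in 4 of the 5 control collections. The log2 difference, superior minus inferior, was -0.55 at P8, -0.66 at P21, -0.57 at P60 and -0.57 in the 2m collection, and 0.13 at P2. The mean of the 5 was -0.44 ± 0.14 (SE over collections), beside a median of 0.10 over all genes tested. Without P2 the mean was -0.59. In 2m cones the inferior cells ran from 1784 to 5070 CPM and the superior cells from 634 to 4299 CPM, so the zones overlapped in single cells.

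The Guca1a level of knockout cones lay close to that of controls of the same zone. Superior knockout cones had a lowest, median and highest value of 6.51, 1976 and 5397 CPM, where the controls had 634, 1839 and 4299 CPM. Inferior knockout cones had 1419, 2791 and 4748 CPM, where the controls had 1784, 2856 and 5070 CPM. The knockout ranges covered those of the controls almost whole, and the single low cell, at 6.51 CPM, was the knockout library with almost no cone markers. The log2 ratio of knockout to 2m control was 0.11 in superior and -0.01 in inferior cones, and 0.18 and 0.06 against P60 controls. The direction in superior cones depended on the averaging (-0.02 with logs averaged over cells). Of the knockout cones, 28 of 50 superior and 23 of 48 inferior cells lay above the control median. The zone difference was -0.45 in knockout cones, beside -0.57 in 2m controls.

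Rods also carried Guca1a. Their lowest, median and highest cells had 10.5, 1213 and 2796 CPM, with a mean of 1227 CPM, and the next lowest rod had 418 CPM. The rod values overlapped those of both cone zones. The log2 ratio of rods to 2m control cones was -0.67 for superior and -1.24 for inferior cones. The median gene had a ratio of -1.01 and -0.81 in the same comparisons, so Guca1a lay above the median gene in the comparison with superior cones and below it in that with inferior cones.

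Guca1b, which encodes GCAP2, was spread more unevenly over the cones. At P2 the superior cones held 1 read of it in 26 cells and the inferior cones held 289 reads, all in 1 of 30 cells. By P8 the lowest, median and highest cells had 0, 0.490 and 1016 CPM in superior and 0, 15.5 and 1263 CPM in inferior cones. Of the P8 cones, 10 of 24 superior and 6 of 24 inferior cells held no read of it, so the cells of either zone were very unequal. From summed reads the inferior increase was 51.8-fold (95% counting interval 46.2 to 58.4). In superior cones, where the base is 1 read, it was 10462-fold with an interval from 1878 to 413213, which spans a very wide range. Reads carry no molecular identifiers, so such intervals cover counting error only.

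RNA of Gnat1, which encodes the alpha subunit of rod transducin, was most widespread in cones at P8. Gnat1 reached at least 100 CPM in 14 of 24 superior and 10 of 24 inferior P8 cones, with means of 367 and 503 CPM, or 0.802% and 1.10% of the rod level. Guca1b in the same groups stood at 1.95% and 3.07% of its rod level. Over the cells of those groups Guca1b and Gnat1 had a Spearman correlation of -0.0068 and -0.04. The part of rod RNA in the P8 level of Guca1b was not tested.

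All 3 genes met the 4-fold rule for P8 over P2, which 1.05% of all genes met in that direction, and for P60 and 2m over P2, met by 1.27%. The rule asked for a 4-fold ratio in both zones, a mean of at least 10 CPM and more than 1 CPM in at least 25% of cells of the higher group. From P21 on, the Guca1b means of control cones varied between collections. Superior means were 122 CPM at P21, 205 at P60 and 103 in the 2m collection. Inferior means were 355, 712 and 148 CPM. The P60 and 2m labels describe near-equal ages, and between them inferior cones differed 4.80-fold. Of the P60 inferior cells, 2 had both Guca1b of 3199 and 2853 CPM and Gnat1 of 13004 and 11800.4 CPM, beside a lowest Gnat1 value of 23772.5 CPM in rods and a highest of 5538 CPM in the cones that do not stand apart. Another 2 P60 inferior cells, at 2826 and 1818 CPM of Guca1b, held no read of Gnat1. Without the libraries that stand apart the P60 inferior mean was 469 CPM, still 3.16-fold above the 2m mean. For scale, 2.53% of genes met the 2-fold rule in both zones as higher and 2.56% as lower in P60 than in 2m cones. Of the 3 genes 0 met it, but Guca1b missed it narrowly, being 1.98-fold higher at P60 in superior and 4.80-fold in inferior cones.

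The Guca1b mean was lower in superior than in inferior cones in each of the 5 control collections. The log2 differences were -1.76 at P2, -0.65 at P8, -1.54 at P21, -1.79 at P60 and -0.52 in the 2m collection. At P2 superior cones held 1 read, and all inferior reads came from 1 of 30 cells. The mean of the 5 differences was -1.25 ± 0.28 (SE), -1.12 without P2 and -1.11 without the libraries that stand apart. In the 2m collection the direction depended on the measure. The medians over 2m cells were 39.3 CPM in both zones, the share of cells above 10 CPM was 75.5% in superior and 64% in inferior cones, and the difference turned to 0.22 with logs averaged over cells. In the other 4 collections it was negative with logs averaged, from -2.01 to -0.19. In knockout cones the zone difference was -1.52.

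**Figure D2:**
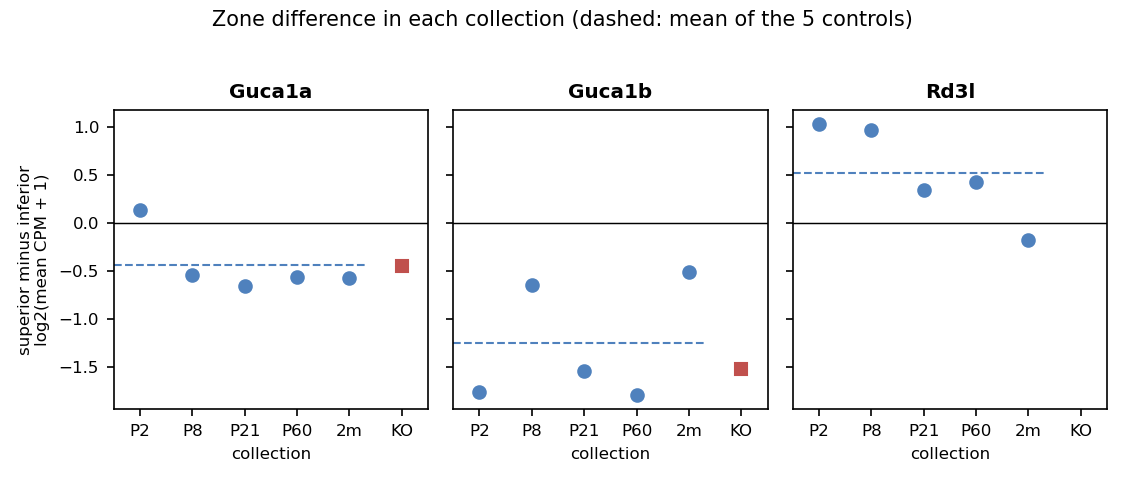
Superior minus inferior difference of each gene on the log2(mean CPM + 1) scale in the 5 control collections (circles; the dashed line is their mean) and in knockout cones (squares). Guca1b lay below 0 in every collection, Guca1a in all but P2, and Rd3l above 0 in all but the 2m collection; Rd3l in knockout cones is left out, since superior cells there held 8 reads.

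Guca1b was higher in knockout cones than in 2m control cones of the same zone. Superior 2m controls had a lowest, median and highest cell of 0, 39.3 and 690 CPM, and superior knockout cones 0.579, 268 and 2515 CPM. Inferior 2m controls had 0.0607, 39.3 and 764 CPM, and inferior knockout cones 0.133, 1028 and 4994 CPM. The groups overlapped at the low end, but 10 of 50 superior and 31 of 48 inferior knockout cones exceeded the highest control cone of their zone. The means differed 4.44-fold in superior (461 against 103 CPM) and 8.92-fold in inferior cones (1326 against 148 CPM).

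The size of that difference depended on which adult controls were used. Against P60 controls the ratio was 2.24-fold in superior and 1.86-fold in inferior cones. Guca1b thus met the 2-fold rule against 2m controls, as 1.05% of all genes did, and not against 2m and P60 controls together (0.173% of genes). Without the libraries that stand apart, the ratios to P60 controls were 2.29-fold and 2.82-fold, both above 2-fold. Among cones with Gnat1 under 100 CPM the knockout was 5.02-fold and 10.9-fold above 2m controls, and 2.05-fold and 2.55-fold above P60 controls.

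The rod markers were not all on one side of the controls in knockout cones. Gnat1 means were 69.8 and 54.4 CPM in knockout against 169 and 375 CPM in 2m control cones, and the rod transcription factor gene Nr2e3 had 0.500 and 0.0392 against 5.38 and 17.4 CPM. Gngt1 and Pde6g, which encode the gamma subunits of rod transducin and rod phosphodiesterase, were higher: 1504 and 1415 against 629 and 853 CPM for Gngt1, and 3040 and 3277 against 1987 and 2201 CPM for Pde6g. Pde6b (3.56 and 43.5 against 41.8 and 158 CPM) and Cnga1 (0.885 and 0.0239 against 1.66 and 18.8 CPM) were lower. Cngb1 was higher (9.69 and 87.0 against 7.44 and 29.8 CPM), and Pde6a was lower in superior and higher in inferior cones (0.759 and 12.3 against 51.7 and 1.20 CPM). The sum of the 8 rod markers was 4629 and 4889 CPM in knockout and 2893 and 3654 CPM in control cones. Most of each sum came from Gngt1 and Pde6g, so its direction follows those genes and not the rod markers as a whole. Set against rods, knockout cones held 7.97% and 22.9% of the rod level of Guca1b and 0.153% and 0.119% of that of Gnat1. In the plot of both genes by cell, many knockout cones lie at high Guca1b with Gnat1 near 0.

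**Figure D3:**
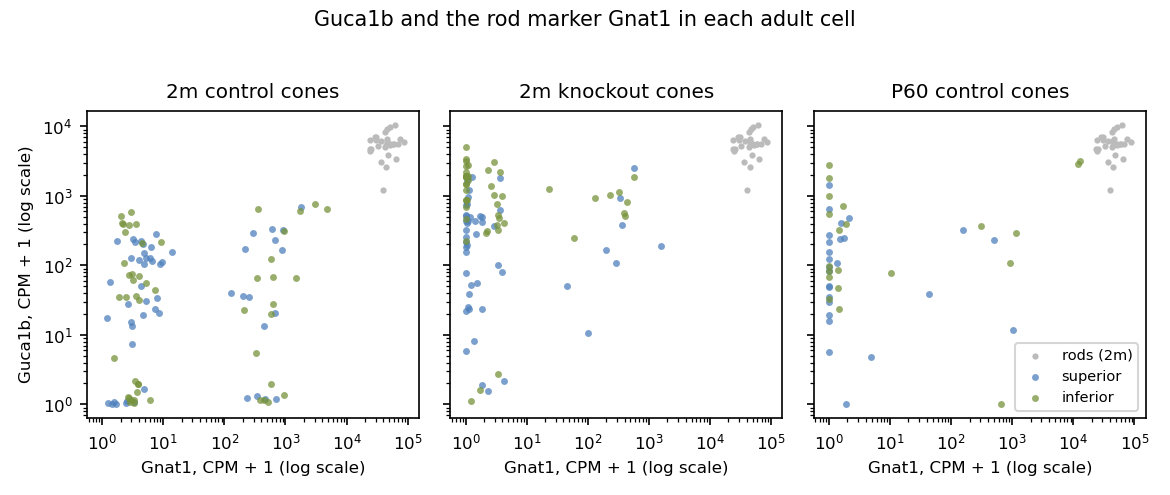
Guca1b against Gnat1 in each adult cell, as CPM + 1 on log scales, for 2m control, 2m knockout and P60 control cones (blue superior, green inferior), with the 29 rods in grey in each panel. The highest Guca1b values of inferior knockout cones sit at low Gnat1, while the highest superior knockout cell, at 2515 CPM, has 567 CPM of Gnat1. The 2 inferior P60 cones at Gnat1 of 13004 and 11800.4 CPM lie closest to the rods.

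Rods had the highest Guca1b level of all 13 groups. Their lowest, median and highest cells had 1198, 5553 and 10579.9 CPM, and the mean was 5778 CPM. Every rod lay above every 2m control cone, which held for 0.077% of all genes. The ratio of means was 55.6-fold to superior and 38.9-fold to inferior 2m control cones, and 12.5-fold and 4.36-fold to knockout cones. To P60 controls it was 28.1-fold and 8.10-fold, and 12.3-fold to the inferior ones without the libraries that stand apart. The ranges of rods and P60 cones overlapped, with 1 superior and 4 inferior P60 cones above the lowest rod and 3 rods below the highest P60 cone. Rods and knockout cones overlapped as well, the highest knockout cells having 2515 CPM in superior and 4994 CPM in inferior cones. Guca1b and Rd3l met the 4-fold rule for rods against 2m and P60 controls, the first as higher (0.423% of genes) and the second as lower (6.51% of genes).

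The balance of the 2 GCAP genes can be compared between groups, since gene length acts alike in each. Guca1a made up 94.99% of the summed CPM of Guca1a and Guca1b in superior and 95.2% in inferior 2m control cones. In P60 controls it was 90.1% and 79.5%. In knockout cones it was 82.1% and 68.4%, and in rods 17.5%. The share lay under 50% in all 29 rods, in 0 of 53 superior and 0 of 50 inferior 2m control cones, in 3 of 21 inferior P60 cones, and in 1 superior and 5 inferior knockout cones. Of the 3 inferior P60 cones, 2 are libraries that stand apart, and without these the count was 1 of 19 and the P60 inferior group share 85.8%. The knockout shares lay below those of both adult control collections in either zone, and no knockout group reached the range of the rods, whose highest cell had 41.03%, although single knockout cells went down to 42.01% and 37.1%.

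**Figure D4:**
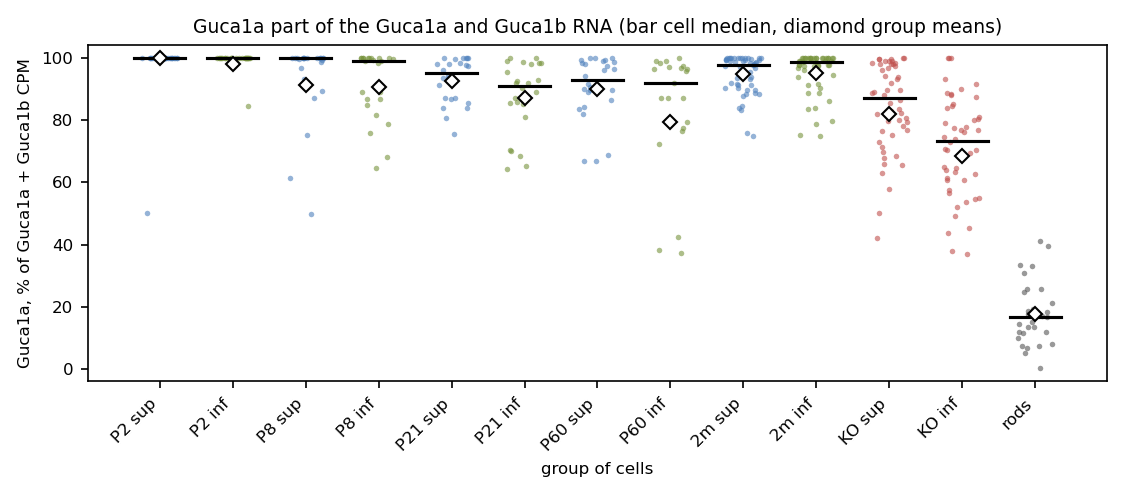
Guca1a as a percentage of Guca1a plus Guca1b CPM in each cell (points) by group, with the median over cells (bars) and the share of the group means (diamonds). Rods lie low, with a group share of 17.5%, and knockout cones, at 82.1% and 68.4%, lie between the 2m controls and the rods.

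Rd3l, the gene related to Rd3, was found in control cones from P8 on and was nearly absent from knockout cones and rods. At P2 it exceeded 10 CPM in 2 of 26 superior and 1 of 30 inferior cones, with a highest value of 159.9 CPM. At P8 the lowest, median and highest cells had 0, 361 and 1620.3 CPM in superior and 0, 130.3 and 1252 CPM in inferior cones. The P2 and P8 ranges overlapped only through the few positive P2 cells and the P8 cells at or near 0. Means went from 9.13 to 423 CPM (41.9-fold) and from 3.96 to 216 CPM (43.7-fold).

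Rd3l then changed far less than from P2 to P8. Its largest step between successive collections was 1.42-fold, from P8 to P21 in inferior cones. Superior means were 389.6 CPM at P21, 404 at P60 and 299 in the 2m collection, and inferior means were 307, 299.9 and 338 CPM. The quartile ranges of all neighbours among the control groups from P8 on overlapped. The zone difference changed sign: superior minus inferior was 1.03 at P2, 0.97 at P8, 0.34 at P21, 0.43 at P60 and -0.18 in the 2m collection. The P2 value rests on 2 of 26 superior and 1 of 30 inferior cones above 10 CPM. The mean zone difference was 0.52 ± 0.22 (SE), and 0.39 without P2.

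In knockout cones Rd3l was close to undetected. In 2m controls the lowest, median and highest cells had 0, 233 and 1311 CPM in superior and 0, 238 and 2048 CPM in inferior cones. Superior knockout cones held 8 reads in 4 of 50 cells, with a highest value of 0.222 CPM. Inferior knockout cones held 968 reads in 4 of 48 cells, and 2 cells, at 68.2 and 26.2 CPM, were above 10 CPM. The ranges overlapped at the low end, where some control cones held little or no Rd3l. No knockout cell reached the control median of its zone.

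The share of cells above 10 CPM was far lower in the knockout groups as well. It was 84.9% of superior (45 of 53, exact Clopper-Pearson 95% interval 72.4 to 93.3%) and 76.0% of inferior 2m controls (38 of 50, 61.8 to 86.9%). Among superior knockout cones it was 0 of 50, which allows a share of up to 6.00% by the rule of 3 of 50 cells (exact upper limit 7.11%). Among inferior knockout cones it was 4.17% (2 of 48, 0.509 to 14.3%). These intervals cover the sampling of cells within 1 group and no spread between mice. From summed reads the control level was 21873-fold above the knockout level in superior cones (interval from the knockout reads 11101 to 50665) and 210.2-fold above it in inferior cones (197 to 224). Of the 968 inferior knockout reads, 862 came from 1 cell, and without that cell the inferior ratio was 1880-fold (1554 to 2296). The log2 ratios of means were -8.21 and -6.84 against 2m controls, and -8.64 and -6.66 against P60 controls, all set in part by the pseudocount of 1 CPM. Rd3l met the 2-fold rule as lower against 2m controls (1% of genes) and against both adult collections (0.395%).

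In the 2 inferior knockout cells with Rd3l, Opn1mw, the gene of the medium-wavelength cone opsin, was at 0, and Thrb was at 0 and 1.26 CPM. Guca1b stood at 518 and 474 CPM, within the range of the other knockout cones. Rods held 2 reads of Rd3l, both in 1 of 29 cells. None exceeded 10 CPM, which allows a share of up to 10.3% by the rule of 3 of 29 cells (exact upper limit 11.9%).

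RefSeq intervals of GRCm38.p6 place Guca1b at chr17:47384694-47392967 and Guca1a next to it at chr17:47394557-47413514, with 1589 bp between them, and Rd3l at chr12:111979191-111981317. The annotation held gives gene intervals without strand or exons. Rd3l lies wholly inside the interval of Tdrd9 (2127 bp shared), and Guca1a shares 781 bp with 1700001C19Rik and 1535 bp with the pseudogene Gm5814. None of these 3 genes is among the 10390 analysed here, whether counting used strand is not given in the sources used here, and reads of overlapping genes cannot be told apart.

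A region of the E18 receptor list lay 1486 bp from Rd3l, on its higher-coordinate side, at chr12:111982803-111983102. By the authors' listed p-value (3.14e-32) it ranked 3 of 4590 regions. It lay inside a region of the list named induced, chr12:111982679-111983233, the name being that of the deposited P30 cone ATAC list and its definition not given in the sources used here. Within 50 kb of Rd3l there were 9 induced regions, a number reached by 0.276% of the 10149 genes placed (28 genes). Of these, chr12:111980005-111980260 lay inside Rd3l and chr12:111981002-111981476 crossed its higher end. By comparison 39% of genes had a receptor region within 50 kb, 35.5% an induced region and 13.2% a suppressed region.

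Guca1b and Guca1a, neighbours on chromosome 17, share most of their regions. A receptor region lay inside Guca1b at chr17:47385321-47385620, with a listed p of 2.46e-12 and rank 242, and it overlapped no region of either ATAC list. Another lay 6439 bp below the gene at chr17:47377956-47378255 (listed p 1.18e-08, rank 520) and overlapped an induced region. Within 50 kb of either gene there were 6 induced regions, a number reached by 1.11% of genes. Of these, chr17:47386478-47387325 and chr17:47387748-47388139 lay inside Guca1b and chr17:47395505-47395849 inside Guca1a. No suppressed region lay within 50 kb of any of the 3 genes, where 13.2% of genes had one.

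**Figure D5:**
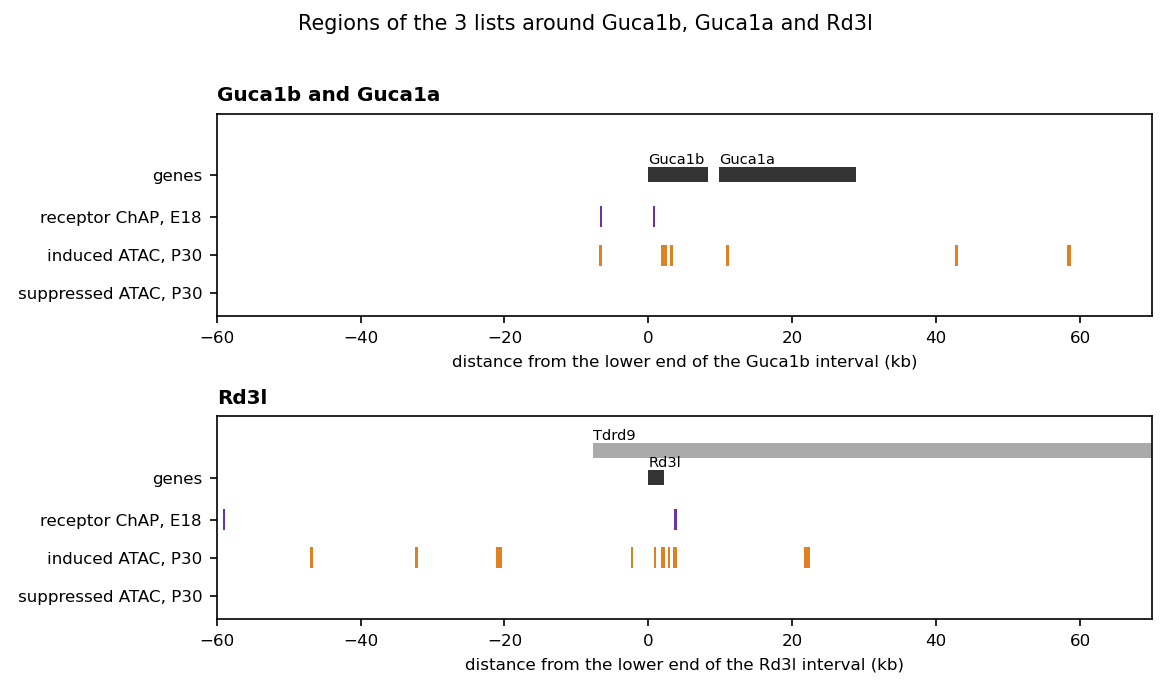
Regions of the 3 lists around Guca1b and Guca1a (upper panel) and around Rd3l (lower panel), by distance in kb from the lower end of the Guca1b or Rd3l interval; bars are drawn at least 0.35 kb wide, and grey marks Tdrd9. The receptor region beside Rd3l lies 1486 bp from the gene, and no suppressed region falls in either window.

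Among the nearest measured neighbours outside the pair, Taf8 alone was lower in knockout cones by more than 2-fold in both zones. Mrps10, 3275 bp below Guca1b, went from 72.5 CPM in control to 102 CPM in knockout superior cones, and from 76.96 to 76.5 CPM in inferior cones. Taf8, 69849 bp above Guca1a, had 14.4 and 18.5 CPM in knockout cones against 41.3 and 50.5 CPM, and 0.00368 CPM in rods. On the Rd3l side, 2010107E04Rik lay 12181 bp below the gene with 39.8 and 43.9 CPM in knockout against 34.1 and 39.9 CPM in control cones. Adssl1, 638729 bp above it, had 4.46 and 37.02 against 27.7 and 13.1 CPM.

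The other genes of cyclic GMP synthesis and its calcium feedback were read from a list of 19, of which 16 were measured (Gucy2f, Gucy2d and Nme1 were not analysed here). Gucy2e, a retinal membrane guanylate cyclase, had means of 36.5 and 68.4 CPM in 2m control, 84.4 and 101.7 CPM in knockout, 101 and 88.2 CPM in P60 control cones and 35.6 CPM in rods. It was the 1 gene of the list to meet the 2-fold rule for P21 over P8 (1.58% of all genes). Rd3 had 551 and 493 CPM in 2m control and 579 and 787 CPM in knockout cones, and 260 CPM in rods, so Rd3 was not near 0 in knockout cones or rods, where Rd3l was.

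Against 2m controls, 1 of the 16 met the 2-fold rule as higher in the knockout (1.05% of all genes) and 0 as lower (1% of all genes). The higher gene was Slc24a1, the rod form of the sodium, calcium and potassium exchanger. It had 49.2 and 86.5 CPM in knockout against 11.3 and 21.9 CPM in control cones, and 2000 CPM in rods. Against both adult collections 0 of 16 met the rule in either direction (0.173% of all genes as higher, 0.395% as lower). Slc24a1 missed it because P60 inferior controls had 132 CPM. That level rested on libraries that stand apart: without them it was 6.11 CPM, and the knockout was 17.7-fold above superior and 12.3-fold above inferior P60 controls. In rods Slc24a1 was higher by the 4-fold rule against 2m and P60 controls (0.423% of all genes), and 7 genes were lower (6.51%). The lower genes were the exchangers Slc24a2 and Slc24a4, Impdh1 (a step in GTP synthesis), the cone phosphodiesterase genes Pde6c and Pde6h, and the cone channel genes Cnga3 and Cngb3. Pde6c, Pde6h, Cnga3 and Cngb3 are also among the cone markers used here, so their low level in rods is no result about the list. Recoverin (Rcvrn), a calcium sensor of photoreceptors, had 1009 and 814 CPM in knockout, 1167 and 1273 CPM in 2m control cones and 2473 CPM in rods. With age, Pde6h met the 4-fold rule for P8 over P2 (1.05% of all genes), and Pde6c and Pde6h met it for adults over P2 (1.27%).

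Between zones, limma called 0 of the 16 listed genes and 0 of all 10136 genes tested (0% called) at an adjusted p of 0.05. The lowest limma adjusted p of any gene was 0.275. The short-wavelength opsin gene Opn1sw was not called either. Its superior and inferior means were 6456 and 81034 CPM at P21, and 8870 and 72134 CPM at P60. A listed gene without a call may therefore still differ between zones. Of all genes, 710 had an unadjusted p under 0.05. With edgeR 0 genes were called and 417 had such a p, and with DESeq2 267 were called (139 higher and 128 lower in superior cones). In the list 7 genes had positive and 9 negative log2 differences, with a median of -0.09 beside 0.10 over all genes. The 1 listed gene with an unadjusted p under 0.05 was Pde6c, at -0.23 ± 0.10 (SE; limma adjusted p = 0.708). Slc24a1 had -1.69 ± 0.88 (limma adjusted p = 0.744), a value that went to -0.0057 without the libraries that stand apart and turned to 0.49 among cones with Gnat1 under 100 CPM. Gucy2e had -0.11 ± 0.27 and Rd3 0.10 ± 0.11.

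Genes with the most similar profile over the 13 group means were ranked by Pearson r of log2(mean CPM + 1) among 10357 genes, as a description of groups that share collections and zones. For Guca1a they were Hk2 (r = 0.965), Guk1 (0.961), Uckl1 (0.957), Laptm4b (0.956) and Sag (0.954). Hk2 is a hexokinase, Guk1 the guanylate kinase that feeds GMP back toward GTP, and Sag the arrestin of rods that cones also make. For Guca1b they were Unc119 (0.954), Prph2 (0.940), Gngt1 (0.938), Pde6g (0.937) and Tmem218 (0.934). With logs averaged over cells, an alternative chosen after seeing the data, Gngt1 had 0.796 and Tmem218 0.388. Prph2 encodes the outer segment disc protein peripherin, with 314 CPM in P2 superior cones and 9584 CPM in rods. For Rd3l they were Obfc1 (0.931), Opn1mw (0.931), Gabrg3 (0.917), Hopx (0.915) and E130218H05 (0.909), and Gabrg3 had 0.613 with logs averaged. Opn1mw had 9599 and 3414 CPM in 2m control cones, 6.63 and 1.47 CPM in knockout cones and 0.00918 CPM in rods. Guca1a and Guca1b had an r of 0.83 with each other, and Rd3l had 0.35 with Guca1a and -0.07 with Guca1b.

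Over the cells within a group the 3 genes varied mostly apart, in descriptions by Spearman correlation without a test. Over 11 groups after P2, Guca1a and Guca1b had values from -0.53 to 0.44 (median 0.02), and Guca1b and Rd3l from -0.33 to 0.23 (median -0.05). The 0.23 was in rods. Rd3l reads were held by 1 of 29 rods, 4 of 50 superior and 4 of 48 inferior knockout cones. Its ranks in those groups are mostly ties at 0. Rd3l and Opn1mw ranged from -0.05 to 0.67 (median 0.095), with 0.67 in 26 P60 superior, 0.40 in 21 P60 inferior and 0.51 in 50 2m inferior cones, and -0.04 in 53 2m superior cones. Guca1b and the short-wavelength opsin gene Opn1sw ranged from -0.19 to 0.49 (median 0.0071), with 0.38 in 50 superior and 0.49 in 48 inferior knockout cones, against 0.02 and 0.01 in 2m controls. Guca1b and the reads per cell had 0.47 in superior and -0.25 in inferior knockout cones, and -0.05 and -0.003 in 2m controls. Guca1b and Gnat1 ranged from -0.37 to 0.36 (median 0.015), with 0.36 in superior and 0.04 in inferior 2m controls, and -0.09 and -0.37 in knockout cones. Cells of a group share their collection, and the genes are scaled to the same library total.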

How the data were processed

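RNA of single cones and rods was measured with SMART-Seq v4 and ThruPLEX libraries, per the labels. The table was deposited in CPM, scaled by the authors to all reads of a library (the genes kept sum to 80.0% to 93.0% of that total). Per the submitters' processing notes, bcl2fastq 2, STAR 2.7.3a and MACS2 2.2.7.1 were used on GRCm38/mm10, with the counter, gene annotation and region calling scheme not given in the sources used here. Region positions come from lists deposited by the authors, the receptor list with a p-value per region, used only to rank regions and, as an alternative, to filter them.

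Whole reads were recovered, since 100% of values above 0 came out whole within 0.1 reads. P60 superior libraries 3 and 14 (Pearson r 0.996 over genes, next highest pair 0.467) were counted as 1 cell, leaving 429 cells (400 cones, 29 rods). Group means over cells were compared as log2(mean CPM + 1). Such ratios understate the change of low genes. Zone differences were fitted, for genes whose mean reached 5 CPM, with limma 3.58.1 (trend, collection as a block; R 4.3.3), Benjamini-Hochberg adjusted over 10136 genes; edgeR 4.0.16 (quasi-likelihood) and DESeq2 1.42.0 on summed reads were alternatives. The scripts were tested on simulated data. RefSeq intervals were matched by gene ID for 10149 genes (241 unmatched), and regions were counted within 50 kb.

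The 3 genes and the lists were chosen with earlier results of these data known. Named are the 3 genes, the cyclic GMP list, markers, Thrb, the nearest measured neighbours and the 5 genes most alike to each. The libraries that stand apart were set aside, and cones with Gnat1 under 100 CPM taken alone, as alternatives chosen after seeing the data. Of the rod marker list, 1 gene is not reported here. Sequences of promoters and proteins were not analysed here.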

Additional observations from a re-analysis of the deposited data

Results flagged for a closer look

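The superior minus inferior difference of Guca1a in P2 cones was 0.13, apart from the other 4 control collections, which ran from -0.66 to -0.55. It is listed for its gap to the nearest of them, 0.855 of the whole range. Chance gives a gap wide enough to be listed in about 1 in 20 groups, and 3 genes were examined. Since Guca1a was chosen with its levels by zone and age known, the gap is a description and not a test. At P2 the Guca1a means were 129.8 and 119 CPM, and 16 of 26 superior and 16 of 30 inferior cones had more than 10 CPM. No explanation of the P2 value was tested.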

How the results depend on the processing

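The zone differences of Guca1a, Guca1b and Rd3l kept their direction under all settings run, with leave-one-out ranges of -0.59 to -0.39, -1.43 to -1.11 and 0.39 to 0.69. Among cones with Gnat1 under 100 CPM, chosen after seeing the data, that of Guca1b was -1.24, with 10 superior and 14 inferior P8 cells left. The number of genes called between zones was 0 with limma, 16 with logs averaged over cells, 2 without the collection term and 267 with DESeq2. For Guca1a the knockout ratio in superior cones was -0.019 with logs averaged and 0.18 against P60 controls, and in inferior cones 0.061 against P60 controls. Its rod ratios were -0.995 and -1.62 with logs averaged, -0.60 (superior, medians), and -0.60 and -1.17 against P60 controls. For Guca1b the knockout ratios were 1.17 and 0.90 against P60 controls and 4.78 (inferior, logs averaged). Its rod ratios were 7.45 and 7.68 with logs averaged, 7.11 and 7.11 with medians, and 4.81 and 3.02 against P60 controls. For Rd3l the superior and inferior knockout ratios were -6.79 and -6.07 with logs averaged, -7.87 and -7.90 with medians, -11.38 and -7.35 with a pseudocount of 0.1 CPM, -4.95 and -4.86 with 10 CPM, and -8.64 and -6.66 against P60 controls. The inferior one was -7.91 with Gnat1 under 100 CPM. Its rod ratios were -6.80 and -6.29, -7.87 and -7.90, -11.50 and -11.68, -4.95 and -5.12, and -8.66 and -8.23 in the same order, and -8.62 (inferior) with Gnat1 under 100 CPM. Among listed genes, Gucy2e turned to 0.12 with logs averaged, 0.025 without the libraries that stand apart, 0.16 with Gnat1 under 100 CPM and 0.086 without the 2m collection (leave-one-out range -0.23 to 0.086). Rd3 turned to -0.025 with edgeR and with DESeq2, Rcvrn to -0.020 without P2 (range -0.020 to 0.14), and Slc24a1 to 0.49 with Gnat1 under 100 CPM. Pde6c was called by DESeq2 alone. Where a value moved, the cause was not tested. The Guca1a share of the pair moved by less than its spread under every setting run. Shares of cells above 10 CPM moved beyond their interval in 14 cases, 12 of them with a limit of 100 CPM, and counts of regions, which cannot fall with the distance, were equal at 10 and 50 kb in some cases and 0 at 10, 50 and 200 kb for suppressed regions near Rd3l.

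Few reads limit the ratios of Guca1b in P2 superior cones and of Rd3l in knockout superior cones and rods, where 1, 8 and 2 reads were held. No paired analysis was possible because the cell numbers in the labels only count picked cells, apart from the pairing of zones by collection, which the differences per collection and the fit with collection as a block use.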
